A study of Danio rerio with 12 samples.

Results

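The genes described here are the F-box and MuRF ubiquitin ligases known for muscle atrophy, followed in zebrafish trunk muscle after a fast and after a meal. They were taken by gene name, with earlier results of these data known, and the rule itself uses no measured value: fbxo32, fbxo25, fbxo21 and fbxo30a of the F-box family, and trim63a, trim63b, trim55a, trim55b and trim54 of the MuRF family. All 9 names were found among the 25281 genes of the deposited table. All 9 were also among the 16745 genes with enough counts to be tested, the low genes fbxo21, fbxo30a and trim54 included.

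Messenger RNA was sequenced from trunk muscle, taken behind the anus and in front of the tail fin, of 12 wild type fish, 4 per group, with no strain given. Fast fish had been without food for 24 h, and Refed_3h and Refed_8h fish went through the same fast and were taken 3 h and 8 h after food was given back. The labels give an age of 2 to 3 months for all groups, while the methods describe fish bought at 3 months and then acclimated for longer than 1 month. By the methods each group held 2 females and 2 males that had shared a tank, but the sex of each fish is not given. There was no group that had never been fasted. The groups were sampled at different hours of the day, so the effects of the meal and of the hour cannot be told apart.

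Ubiquitin ligases choose the proteins that are tagged with ubiquitin for breakdown by the proteasome. An F-box protein is the exchangeable, substrate-binding part of an SCF complex, which it joins through Skp1 and cullin 1. MuRF proteins belong to the TRIM family, carry a RING finger and sit at the sarcomere, where they bind titin and other proteins of the contractile apparatus. In mammals several of these genes are switched on by FoxO factors when insulin signalling is low, and FBXO32 (atrogin-1 or MAFbx) and TRIM63 (MuRF1) are the usual molecular markers of a wasting muscle.

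Between 11929140 and 18446239 reads per library were counted on genes, of which 10.7% to 17.4% were mitochondrial, and no pair of libraries was identical. Muscle markers were present as the tissue label implies: the 14 fast skeletal muscle genes were all above 0 in every group, and their summed level was 83734 to 124704 TPM (transcripts per kilobase, scaled to a common library total) over the 12 fish. By group this sum was 83734 to 103216 TPM in Fast, 90801 to 120781 TPM in Refed_3h and 92410 to 124704 TPM in Refed_8h. Its means were 92599, 108778 and 108954 TPM in that order. The cardiac list, which matters because MuRF genes are also cardiac genes, was carried by tnni1c, and 2 or 3 of its 7 measured genes were at 0 in each group. Skin was part of the sample, and its summed level differed between the groups. The 11 skin epithelium genes, all above 0, summed to 12038 to 20581 TPM in Refed_3h and 10637 to 20104 TPM in Refed_8h, against 21032 to 24184 TPM in Fast. No refed fish reached the range of the Fast fish, so skin level and group were confounded in comparisons with Fast. None of the 11 passed the edgeR test in any comparison, although 2, 8 and 3 of them had an unadjusted p under 0.05 for Refed_3h against Fast, Refed_8h against Fast and Refed_8h against Refed_3h, and DESeq2 called 0, 5 and 1. In that order, at least 3573, 1419 and 3164 of the 16745 tested genes had an unadjusted p under 0.05 in edgeR. Of 13 tested fast muscle genes 3 rose in Refed_3h against Fast, and of 7 leukocyte genes 3 were higher in Refed_8h than in Refed_3h (edgeR). The leukocyte genes, all above 0, summed to 1703 to 3085 TPM in Refed_8h, against 1344 to 1913 TPM in Refed_3h. No gene of the red blood cell and pigment cell lists passed in edgeR. The 5 red blood cell genes, all above 0, summed to 1114 to 4970 TPM in Refed_3h and 1187 to 1969 TPM in Refed_8h, against 908 to 1551 TPM in Fast, with 3, 0 and 4 at an unadjusted p under 0.05 and 2, 0 and 3 called by DESeq2 in the 3 comparisons. The 8 pigment cell genes, all above 0, summed to 11.0 to 21.9 TPM in Refed_3h and 16.9 to 27.0 TPM in Refed_8h, against 21.1 to 46.8 TPM in Fast, with 5, 3 and 0 at an unadjusted p under 0.05 and 0, 1 and 0 called by DESeq2. The part of fast muscle content, leukocytes, red blood cells and pigment cells in the results on the ligases was not tested. As in any bulk sample, fewer cells of a type and less RNA per cell cannot be told apart.

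On build GRCz11, fbxo32 (ENSDARG00000040277) lies at chr16:25259313-25272633 on the plus strand, and fbxo25 (ENSDARG00000075172) at chr23:35468834-35483310 on the minus strand. The annotated span of fbxo25 overlaps that of a pair of plus-strand genes, of which CR933812.1 was listed at 0 in all fish and si:ch211-225h24.2 averaged 0.591 to 0.930 TPM per group. fbxo21 (ENSDARG00000076611, chr5:11812080-11836557, plus strand) and fbxo30a (ENSDARG00000058561, chr17:7620220-7628458, plus strand) overlap no other gene. trim63a (ENSDARG00000028027, chr6:15651977-15653494, minus strand) and trim63b (ENSDARG00000086685, chr9:23900703-23902215, plus strand) are short, with exon lengths of 1518 and 1513 bases that equal their whole spans. The other 7 genes have spans of 8239 to 28507 bases around 1642 to 2641 exon bases. trim63b lies within the span of cops8 on the same strand, a gene at 21.6 ± 1.16, 19.6 ± 3.81 and 18.3 ± 2.43 TPM in Fast, Refed_3h and Refed_8h (SD, n = 4 each). trim55a (ENSDARG00000029596) is at chr2:42114310-42128714 on the minus strand, trim55b (ENSDARG00000058158) at chr24:24831727-24846603 on the plus strand and trim54 (ENSDARG00000029907) at chr20:38730291-38758797 on the minus strand. Whether strand was used in counting, and how reads of 36 bases that match both an a and a b copy were assigned, is not given by the sources at hand.

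The MuRF genes made up most of the ligase transcripts. In TPM, which corrects for gene length so that levels of different genes can be set side by side, the 5 MuRF genes summed to 331 ± 171, 162 ± 39.5 and 358 ± 104 for Fast, Refed_3h and Refed_8h (SD, n = 4 each). The 4 F-box genes summed to 70.6 ± 18.5, 6.84 ± 1.79 and 66.6 ± 45.9 TPM in the same order. MuRF genes thus held 73.7% to 87.3% of the summed level of all 9 genes in Fast fish, 93.2% to 97.3% in Refed_3h fish and 74.8% to 92.4% in Refed_8h fish. The Refed_3h fish overlapped neither other group in this share. The sums themselves stand beside a general shift of TPM. Of all tested genes 16.5% had all Refed_3h fish below all Fast fish, and 1.05% had all of them above.

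In all 3 groups trim63a and trim63b were the most abundant, and their ranges overlapped in each. fbxo32 had rank 3 by mean level in Fast and Refed_8h and rank 7 in Refed_3h. In Fast fish its range overlapped that of trim55b, the next gene, and in Refed_8h fish it overlapped both its neighbours, trim63b and trim55a. fbxo21, fbxo30a and trim54 were low, with group means of 0.528 to 2.42 TPM, and rested on 7 to 64 counts per library, so their values are the least precise of the 9.

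**Figure D1:**
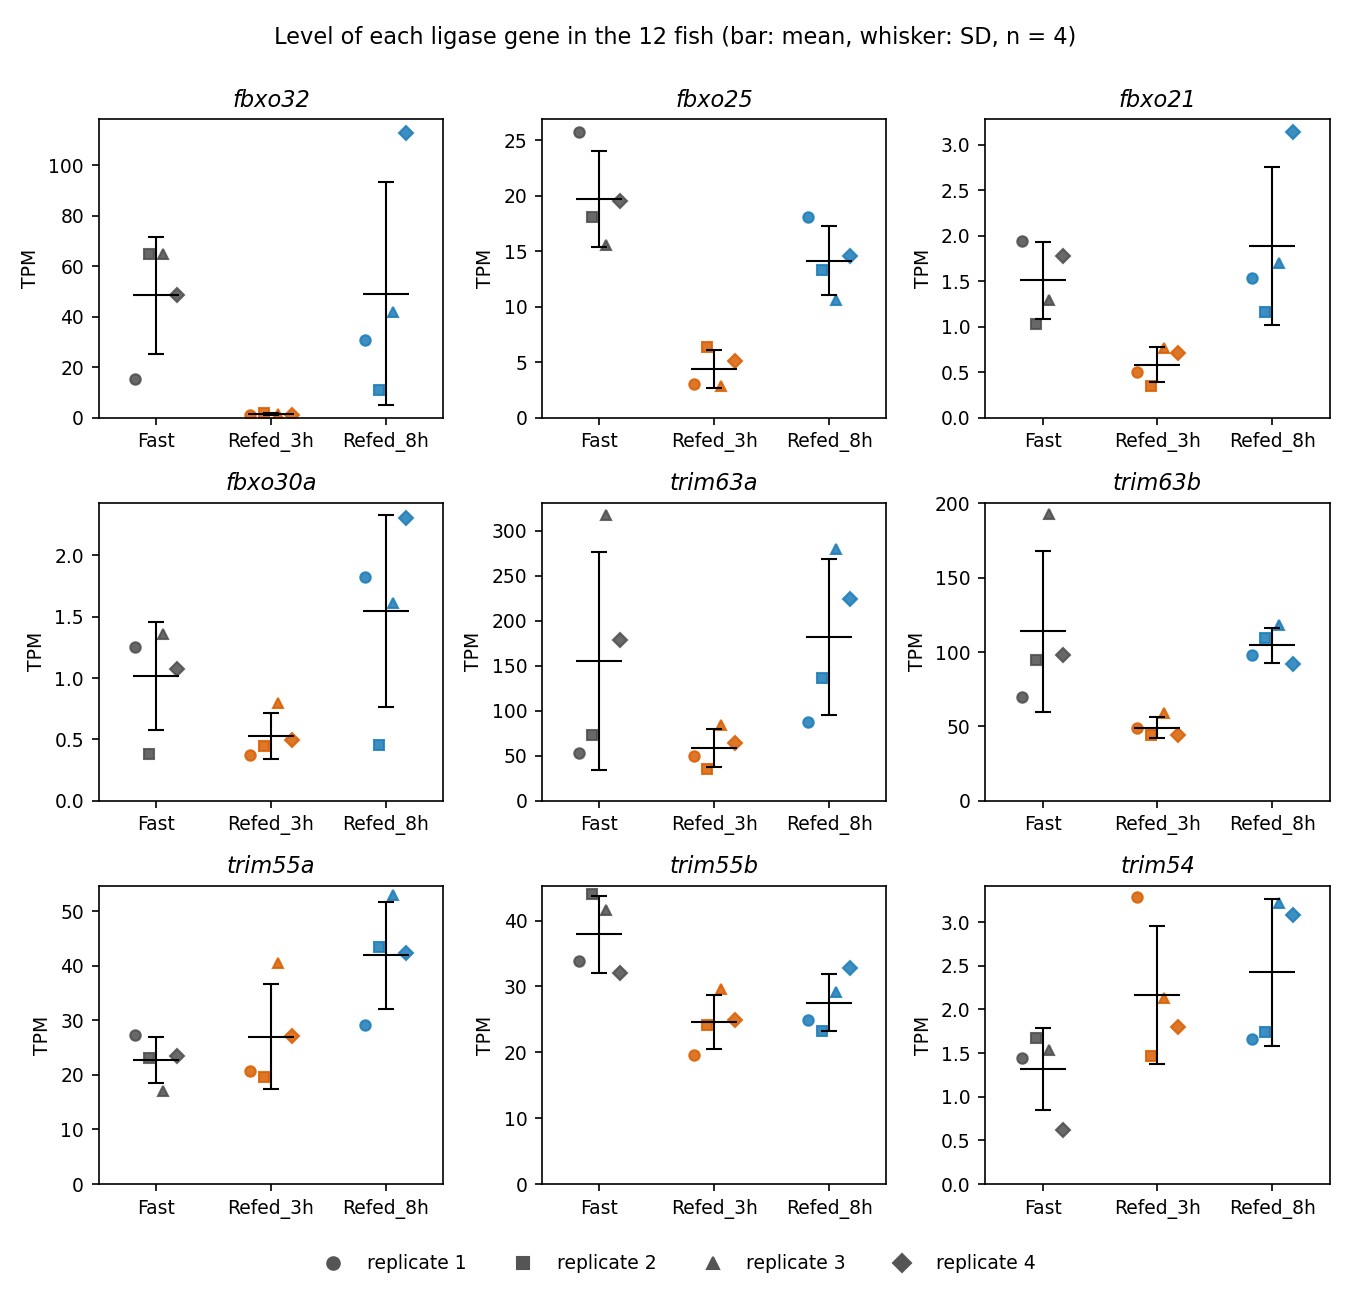
TPM of each of the 9 ligase genes on a linear axis from 0, with its own scale per gene, 1 point per fish, and a bar and whiskers for the group mean and SD (n = 4). fbxo32 lies at 0.894 to 1.95 TPM in the 4 Refed_3h fish, against 11.0 to 112.5 TPM in the 8 other fish, while trim54 and trim55a have no such dip.

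fbxo32, the zebrafish atrogin-1 gene, was the member that moved most. Its TPM was 15.5, 64.9, 64.6 and 48.5 in the Fast fish, 1.07, 1.95, 1.56 and 0.894 in the Refed_3h fish, and 30.6, 11.0, 42.0 and 112.5 in the Refed_8h fish. No Refed_3h fish came near the others, and the highest of them was below the lowest fish of either other group. The Fast and Refed_8h fish overlapped and were widely spread, with a highest-to-lowest ratio of 4.19 in Fast and 10.2 in Refed_8h. At 3 h fbxo32 still gave 18 to 37 counts per library, so it was low but not lost.

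In edgeR's quasi-likelihood test, with p-values adjusted over all tested genes by Benjamini-Hochberg, fbxo32 was 29.1-fold lower in Refed_3h than in Fast (log2 fold change -4.86, SE 0.75, adjusted p = 0.00683). It was 29.6-fold higher in Refed_8h than in Refed_3h (log2 4.89, SE 0.75, edgeR adjusted p = 0.00468), or by 4.13 on the log2 scale without replicate 4 of Refed_8h, the highest fish (edgeR adjusted p = 0.00605). Between Refed_8h and Fast the estimate was 0.02, with a 95% interval of -1.31 to 1.35 (edgeR adjusted p = 0.992), so a difference of more than 2-fold either way is within the interval. Without the same fish that estimate was -0.73 (edgeR adjusted p = 0.643). These comparisons share fish, since each group of 4 enters a pair of them. A skin score, the mean log2(TPM + 1) of the skin epithelium genes, was added to the model as an alternative. The Refed_3h estimate of fbxo32 against Fast was then -4.59 and no longer passed (edgeR adjusted p = 0.0769). In this fit 124 genes passed in place of 821 for that comparison. The summed skin level of Fast fish overlapped neither refed group, so estimates against Fast with this score cannot tell skin and group apart. With the score the fbxo32 estimate for Refed_8h against Refed_3h was 4.82 and passed (edgeR adjusted p = 0.00998).

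fbxo25, the closest relative of atrogin-1 among F-box genes, followed with a smaller amplitude and less spread. Its TPM was 25.7, 18.1, 15.6 and 19.5 in Fast, 3.06, 6.40, 2.85 and 5.14 in Refed_3h, and 18.05, 13.3, 10.6 and 14.6 in Refed_8h. All 4 Refed_3h fish lay below all other fish. fbxo25 was 3.48-fold lower in Refed_3h than in Fast (log2 -1.80, SE 0.25, edgeR adjusted p = 0.00183). It was 2.68-fold higher in Refed_8h than in Refed_3h (log2 1.42, SE 0.24, edgeR adjusted p = 0.00514). For Refed_8h against Fast the estimate was -0.38, with an interval of -0.89 to 0.13 (edgeR adjusted p = 0.539). Both calls of fbxo25 held in all 22 alternative analyses, the model with skin markers among them (-1.74, edgeR adjusted p = 0.0372, for Refed_3h against Fast).

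fbxo21 and fbxo30a are the zebrafish counterparts of genes that were described in mouse as the atrophy ligases SMART and MUSA1. fbxo21 stood at 1.94, 1.03, 1.30 and 1.78 TPM in Fast, 0.507, 0.352, 0.771 and 0.709 in Refed_3h, and 1.54, 1.17, 1.70 and 3.14 in Refed_8h. Again the 4 Refed_3h fish were the lowest 4 of the 12, though on only 7 to 15 counts each. It was 2.64-fold higher in Refed_8h than in Refed_3h (log2 1.40, SE 0.37, edgeR adjusted p = 0.0419). Its estimate for Refed_3h against Fast, -0.98 (SE 0.38), did not pass (edgeR adjusted p = 0.141). The call of fbxo21 was the weakest of those made here: it held in 10 of 22 alternatives and was lost, among others, without filtering (edgeR adjusted p = 0.0558). Leaving out 1 library at a time gave adjusted p-values up to 0.141 (without replicate 4 of Refed_8h).

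fbxo30a stood at 1.25, 0.384, 1.36 and 1.08 TPM in Fast, 0.377, 0.449, 0.794 and 0.493 in Refed_3h, and 1.82, 0.454, 1.61 and 2.30 in Refed_8h. Replicate 2 was as low as the Refed_3h fish in both other groups, so the groups overlapped. None of its 3 comparisons passed, and the one with the largest estimate was Refed_8h against Refed_3h (log2 1.27, SE 0.45, edgeR adjusted p = 0.112).

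Because 2 genes of the same library share its depth and scaling, their ratio within a fish shows unequal change without any normalization. fbxo32 over fbxo25 was 0.601, 3.58, 4.14 and 2.49 in Fast, 0.348, 0.305, 0.546 and 0.174 in Refed_3h, and 1.70, 0.826, 3.98 and 7.70 in Refed_8h. Every Refed_3h fish thus had less fbxo32 than fbxo25, which was true of 1 fish in each other group. The mean log2 ratio was lower in Refed_3h than in Fast by a difference of -2.70 (exact two-sided permutation p = 0.0286, the smallest that 4 against 4 fish can give). Between Refed_8h and Fast it differed by 0.24 (exact permutation p = 0.8286).

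fbxo32 over trim63a, the ratio of the textbook pair of atrophy markers, was 0.0139 to 0.0547 in Refed_3h and 0.204 to 0.889 in Fast, with no overlap. Its difference was -3.79 on the log2 scale (exact permutation p = 0.0286). In Refed_8h the ratio was 0.0807 to 0.502, with a difference from Fast of -0.68 (exact permutation p = 0.371). Of 8 such ratio comparisons made over 4 gene pairs, the 4 with an exact permutation p of 0.0286 had an adjusted p of 0.0571, so none passed after adjustment.

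**Figure D2:**
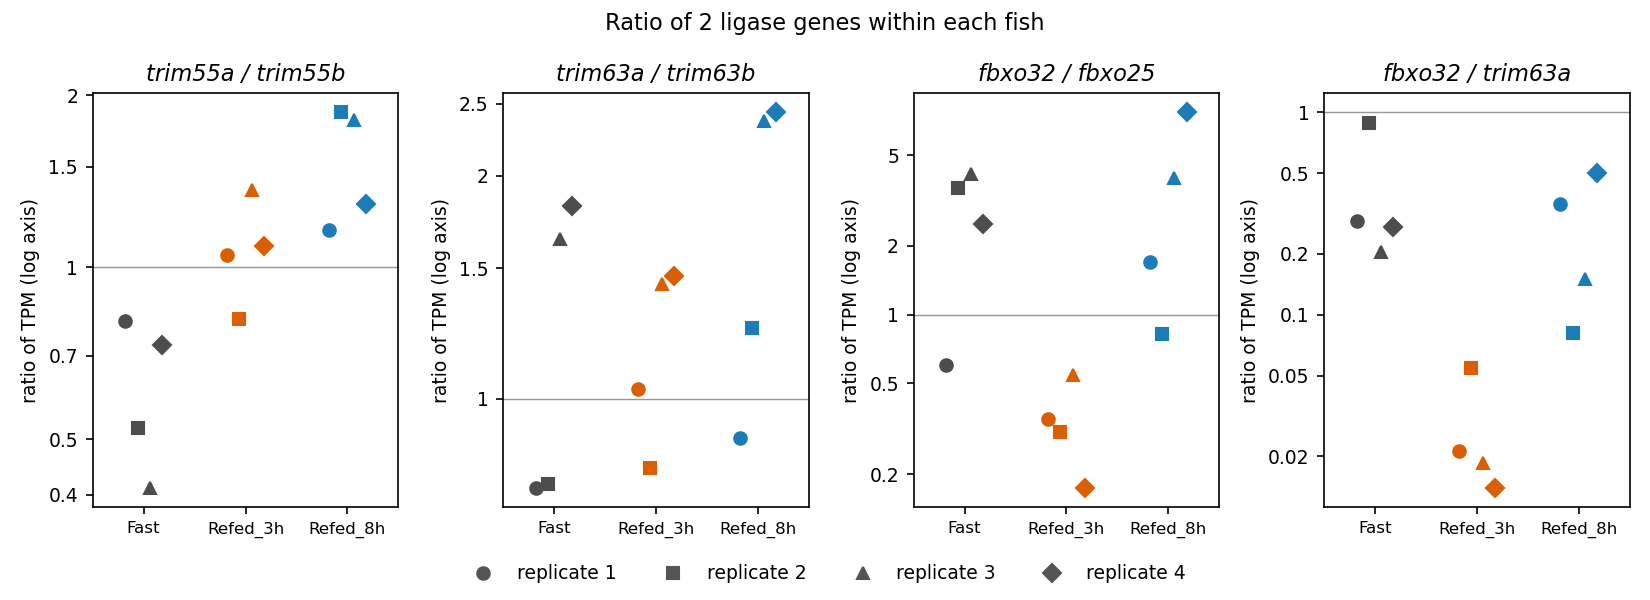
Ratio of TPM between 2 ligase genes in each fish, on a log axis with a line at equal levels, for Fast, Refed_3h and Refed_8h. Marker shapes give the replicate number. The 4 Fast fish lie below 1 and the 4 Refed_8h fish above 1 for trim55a over trim55b, and the Refed_3h fish lie lowest for both fbxo32 ratios.

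trim63a and trim63b are the zebrafish copies of MuRF1, which in mouse and rat ubiquitinates myosin and other thick-filament proteins. trim63a was at 53.2, 72.9, 317 and 178 TPM in Fast, 50.3, 35.7, 84.8 and 64.5 in Refed_3h, and 87.0, 136, 280 and 224 in Refed_8h. Its mean was lowest in Refed_3h, but the Refed_3h and Fast fish overlapped, and the Fast fish spread over a 5.97-fold range. Refed_8h fish were all above Refed_3h fish, by a narrow margin between 87.0 and 84.8 TPM. No edgeR comparison of trim63a passed: -1.05 (SE 0.57, adjusted p = 0.302) for Refed_3h against Fast, and 1.39 (SE 0.58, adjusted p = 0.182) for Refed_8h against Refed_3h. For Refed_8h against Fast the estimate was 0.34, with an interval of -0.91 to 1.58. Without replicate 3 of Fast, the fish with the highest trim63a, the estimates against Fast were -0.46 for Refed_3h and 0.93 for Refed_8h. With the skin score added they were -2.22 and -0.60, where skin and group cannot be told apart. Refed_8h against Refed_3h passed with the score (log2 1.62, edgeR adjusted p = 0.0445).

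trim63b was at 70.1, 94.9, 193 and 98.1 TPM in Fast, 48.8, 44.2, 59.4 and 44.1 in Refed_3h, and 98.1, 109, 118 and 92.1 in Refed_8h. Here the 4 Refed_3h fish were below all 8 others. The estimate for Refed_3h against Fast was -0.88 (SE 0.28, edgeR adjusted p = 0.0872), and for Refed_8h against Refed_3h 0.86 (SE 0.28, edgeR adjusted p = 0.0891). Neither passed in the edgeR test, whereas DESeq2 called both (adjusted p = 0.0315 and 0.034). In limma on log2(TPM + 1) both were called too (adjusted p = 0.0224 and 0.0286), on a scale where the median of all genes was itself shifted by -0.26 and 0.18. Without replicate 1 of Fast the edgeR adjusted p for Refed_3h against Fast was 0.0431, and with the skin markers added that for Refed_8h against Refed_3h was 0.0323. Without replicate 3 of Fast, the fish with the highest trim63b, the estimate for Refed_3h against Fast was -0.51 (edgeR adjusted p = 0.196). Of the 22 alternatives, trim63b passed in 5 for Refed_3h against Fast and in 8 for Refed_8h against Refed_3h. Refed_8h against Fast gave -0.02 for trim63b, with an interval of -0.62 to 0.58.

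trim63a over trim63b within a fish was 1.03, 0.807, 1.43 and 1.46 in Refed_3h, against 0.759, 0.768, 1.64 and 1.82 in Fast. The mean log2 ratio differed by -0.0013 between these groups (exact permutation p = 1.0). In Refed_8h the ratio was 0.887, 1.25, 2.37 and 2.43, with a difference from Fast of 0.47 (exact permutation p = 0.371). What did separate this ratio was the replicate number: fish 3 and 4 were above fish 1 and 2 in each group.

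The split of this ratio in all 3 groups came from trim63a. The mean level of trim63a in replicates 3 and 4 was 3.93, 1.74 and 2.25 times that in replicates 1 and 2 in Fast, Refed_3h and Refed_8h. Fish 3 and 4 were also above fish 1 and 2 in both refed groups for fbxo21 and trim55b. The same held in a single group for fbxo32 (Refed_8h, 3.71 times), fbxo30a, trim63b, trim55a and trim54, and in no group for fbxo25. How many of all tested genes split in this way was not counted, so the tally only describes these fish. What the replicate numbers stand for is not given by the labels or the methods. As a term in the edgeR model, replicates 3 and 4 against 1 and 2 gave 1.34 for trim63a (SE 0.26, adjusted p = 0.0907). Only 3 of all tested genes, 0.0179%, passed for this term, and none of the 9 ligases did (edgeR), although trim63a, fbxo21 and fbxo30a had an unadjusted p under 0.05. With the term in the model, trim63a passed for Refed_8h against Refed_3h (log2 1.34, edgeR adjusted p = 0.0261). The term matches the split seen in trim63a itself, so this call is not independent of that split. For this comparison trim63a passed in only 3 of the 22 alternatives. Within replicates 1 and 2 the log2 ratio of mean trim63a TPM was -0.55 for Refed_3h over Fast and 1.38 for Refed_8h over Refed_3h, and within replicates 3 and 4 it was -1.73 and 1.76.

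trim55a and trim55b are the copies of MuRF2, which in mammals binds titin and microtubules during sarcomere assembly. trim55a was at 27.3, 23.1, 17.1 and 23.4 TPM in Fast, 20.6, 19.6, 40.5 and 27.1 in Refed_3h, and 29.1, 43.3, 52.9 and 42.4 in Refed_8h. All 4 Refed_8h fish were above all 4 Fast fish, and the Refed_3h fish overlapped both. trim55a was the nearest to a call for Refed_8h against Fast, with 1.017 (SE 0.27, 95% interval 0.43 to 1.60, edgeR adjusted p = 0.0963). DESeq2 called it (adjusted p = 0.0148), and so did edgeR without replicate 1 of Refed_8h (adjusted p = 0.0361). With the skin score added to the model, the estimate was 0.52 (edgeR adjusted p = 0.5), where skin and group cannot be told apart.

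trim55b was at 33.9, 44.1, 41.6 and 32.1 TPM in Fast, 19.6, 24.2, 29.6 and 24.8 in Refed_3h, and 25.0, 23.2, 29.2 and 32.8 in Refed_8h. Its fish differed little within a group, with a coefficient of variation of 15.4% to 16.6%. The Refed_3h fish lay below the Fast fish in TPM, but the edgeR estimate was -0.29 (SE 0.19, adjusted p = 0.382). limma on log2(TPM + 1), where the median of all genes was -0.26, gave -0.61 and called it (adjusted p = 0.0441). For Refed_8h against Fast it was -0.37 (SE 0.19, edgeR adjusted p = 0.43).

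In TPM the order of the a and b copies of MuRF2 differed between Fast and Refed_8h fish. How reads that match both copies were assigned is not given. trim55a over trim55b was 1.16, 1.87, 1.81 and 1.29 in Refed_8h, against 0.805, 0.524, 0.411 and 0.731 in Fast. trim55b was thus the more abundant copy in every Fast fish and trim55a in every Refed_8h fish. In Refed_3h the ratio was 1.05, 0.812, 1.37 and 1.09, above every Fast fish. The mean log2 ratio was higher by 1.33 in Refed_8h and by 0.83 in Refed_3h than in the same Fast fish (exact permutation p = 0.0286 and adjusted p = 0.0571 for each).

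trim54, the MuRF3 gene, whose product in mammals associates with microtubules, was at 1.45, 1.67, 1.54 and 0.624 TPM in Fast, 3.28, 1.46, 2.13 and 1.80 in Refed_3h, and 1.66, 1.74, 3.22 and 3.08 in Refed_8h. The groups overlapped in each comparison. Its estimates were 1.07 for Refed_3h (SE 0.39, edgeR adjusted p = 0.123) and 0.99 for Refed_8h (SE 0.39, edgeR adjusted p = 0.283) against Fast, both positive where the estimates of most other ligases at 3 h were negative.

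Counted over the 9 genes, 2 were lower and passed in Refed_3h against Fast, both F-box genes, and 7 did not pass in either direction. Of all tested genes 2.63% were lower and passed in this comparison and 2.28% were higher and passed, together 4.9%. In edgeR 6 of the 9 had an unadjusted p under 0.05, among them trim55a and trim54 with positive estimates. At least 3573 of the 16745 tested genes had an unadjusted p under 0.05 here. DESeq2 called 3 and limma on log2(TPM + 1) called 4. The shares of all genes that DESeq2 and limma called are not given here. The median log2 fold change of the 9 was -0.88, beside -0.01 for all tested genes. In TPM, 5 of the 9 (fbxo32, fbxo25, fbxo21, trim63b and trim55b) had all Refed_3h fish below all Fast fish, which held for 16.5% of all tested genes. None of the 9 lay wholly higher, as 1.05% of all tested genes did.

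For Refed_8h against Fast none of the 9 passed in edgeR, where 0.854% of all tested genes passed as lower and 0.543% as higher, together 1.4%. trim55a and trim54, that is 2 of the 9, had an unadjusted p under 0.05, DESeq2 called 1 and limma on log2(TPM + 1) called 0. At least 1419 of the 16745 tested genes had an unadjusted p under 0.05 in this edgeR comparison. The median of the 9 was 0.34, beside 0.00 for all tested genes, and only trim55a did not overlap, lying higher, as did 2.05% of all tested genes, while 4.29% lay lower.

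For Refed_8h against Refed_3h, 3 of the 9 (fbxo32, fbxo25 and fbxo21) were higher and passed, beside 3.06% of all tested genes, and none was lower, beside 3.36% (together 6.41%). In edgeR 6 of the 9 had an unadjusted p under 0.05, all with positive estimates, as had at least 3164 of the 16745 tested genes in either direction. DESeq2 called 4 and limma on log2(TPM + 1) called 4. The median log2 fold change of the 9 was 1.27, beside 0.01 for all tested genes. In TPM 5 of the 9 (fbxo32, fbxo25, fbxo21, trim63a and trim63b) had all Refed_8h fish above all Refed_3h fish, which held for 11.7% of all tested genes. None of the 9 lay wholly lower, as 2.05% of all tested genes did. In the main edgeR fit all the ligase calls in both directions were thus of F-box genes and none of MuRF genes. The difference between the families was not tested as such. MuRF genes did pass in some alternatives. For Refed_8h against Refed_3h trim63b passed in 8 of 22 and trim63a in 3, beside 10 for fbxo21.

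**Figure D3:**
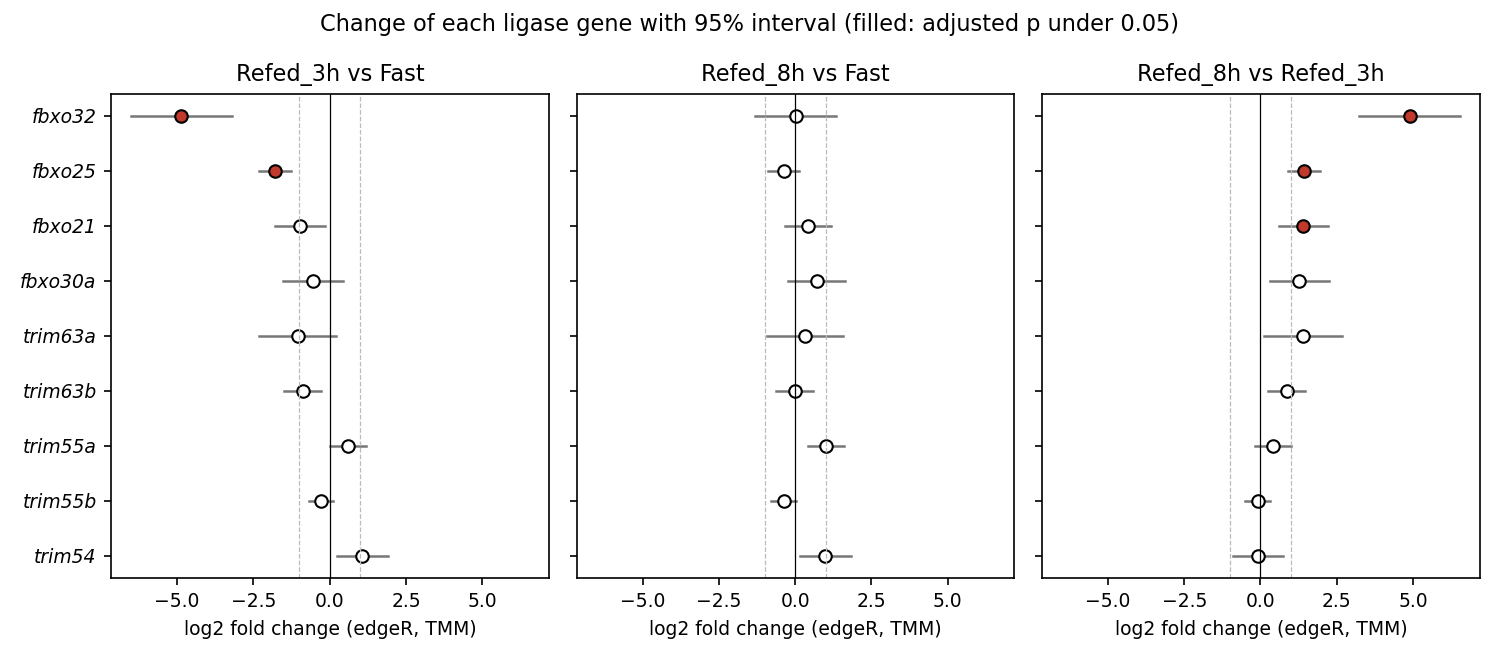
edgeR log2 fold change of each ligase gene with its 95% interval for the 3 comparisons, filled where the adjusted p was under 0.05, and dashed lines at 2-fold either way. fbxo32 and fbxo25 are filled for Refed_3h against Fast, no gene is filled for Refed_8h against Fast, and fbxo32, fbxo25 and fbxo21 are filled for Refed_8h against Refed_3h.

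The partners that F-box proteins need stayed without a call. Of 13 tested genes of the SCF core and its neddylation machinery, none passed in any comparison (edgeR, and DESeq2 also called 0). An unadjusted p under 0.05 was found for 5, 0 and 0 of them in the order of comparisons used above. Of the 16745 tested genes at least 3573, 1419 and 3164 had such a p. skp1, which links the F-box to the cullin, was the most abundant at 226 ± 21.7, 218 ± 13.8 and 253 ± 13.3 TPM in Fast, Refed_3h and Refed_8h (SD, n = 4 each). Its TMM-scaled estimate for Refed_3h against Fast was 0.30 (edgeR adjusted p = 0.251). The median of the 13 was also 0.30, beside -0.01 for all tested genes. Of 28 tested genes for ubiquitin, E1 and E2 enzymes, 1 fell and 2 rose in Refed_3h against Fast, and 1 was lower and 2 were higher in Refed_8h than in Refed_3h, where 4.9% and 6.41% of all tested genes passed. ubb, a polyubiquitin gene, was at 331 ± 51.7, 146 ± 50.0 and 521 ± 94.2 TPM in Fast, Refed_3h and Refed_8h (SD, n = 4 each). It fell in Refed_3h against Fast (log2 -0.88, edgeR adjusted p = 0.0298) and was higher in Refed_8h than in Refed_3h (log2 1.60, edgeR adjusted p = 0.000836). The other polyubiquitin gene, ubc, was higher in Refed_8h than in Refed_3h (log2 0.84, edgeR adjusted p = 0.0263). The E2 gene ube2d3 rose in Refed_3h against Fast (log2 0.80, edgeR adjusted p = 0.0186), and ube2nb was lower in Refed_8h than in Refed_3h (log2 -0.51, edgeR adjusted p = 0.0431).

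Among 45 other tested F-box genes, 1 was higher and passed in Refed_3h against Fast, 1 was higher in Refed_8h against Fast, and 2 were higher and 1 lower in Refed_8h against Refed_3h. These counts can be read beside the 4.9%, 1.4% and 6.41% of all tested genes that passed. At an unadjusted p under 0.05 there were 12, 4 and 12, and DESeq2 called 5, 2 and 6. Of the 16745 tested genes at least 3573, 1419 and 3164 had an unadjusted p under 0.05 in the same order. fbxo7 was higher in Refed_8h than in Refed_3h (log2 1.01, edgeR adjusted p = 0.0243), and fbxo42 was lower (log2 -1.03, edgeR adjusted p = 0.0134). fbxw11b rose in Refed_3h against Fast (log2 0.62, edgeR adjusted p = 0.0481), while fbxo9, the most abundant other F-box gene, was at 72.8 to 82.1 TPM in the group means. Among 45 other tested TRIM genes 3 fell in Refed_3h against Fast: trim109 (log2 -1.08, edgeR adjusted p = 0.0343), trim16 (log2 -0.92, edgeR adjusted p = 0.0347) and trim44 (log2 -0.77, edgeR adjusted p = 0.0295), where 2.63% of all tested genes were lower and passed. In that comparison 13 of the 45 had an unadjusted p under 0.05 and DESeq2 called 7. trim44 was also the only one that was higher in Refed_8h than in Refed_3h (log2 0.85, edgeR adjusted p = 0.0155). trim101 was the most abundant of them at 60.5 to 75.0 TPM in the group means.

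Of 25 tested genes on a list of other ligases linked to muscle wasting, 1 was called, as higher in Refed_8h than in Refed_3h. Of all tested genes 3.06% were higher and passed in this comparison. The gene called was zfand5a (log2 0.77, edgeR adjusted p = 0.0226), whose mammalian counterpart binds ubiquitin and the proteasome and is not itself a ligase. In Refed_3h against Fast none of the 25 passed in edgeR, where 9 had an unadjusted p under 0.05 and DESeq2 called 4. At least 3573 of the 16745 tested genes had an unadjusted p under 0.05 there. Of 18 tested deubiquitinases, usp1 rose in Refed_3h against Fast (log2 0.58, edgeR adjusted p = 0.0458) and was lower in Refed_8h than in Refed_3h (log2 -0.79, edgeR adjusted p = 0.00974). Of all tested genes 2.28% and 3.36% passed in these directions. In the same order 3 and 6 of the 18 had an unadjusted p under 0.05 in edgeR, and DESeq2 called 2 and 4. Such an unadjusted p was found for at least 3573 and 3164 of the 16745 tested genes. usp2a, the most abundant, was at 61.9 ± 5.26, 43.2 ± 5.58 and 34.6 ± 4.20 TPM in Fast, Refed_3h and Refed_8h (SD, n = 4 each) and did not pass.

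Substrates and sarcomere partners described for these ligases in mouse or rat were mostly without a call in edgeR. Of 30 tested, 2 fell in Refed_3h against Fast, beside 2.63% of all tested genes. They were nbr1a (log2 -1.16, edgeR adjusted p = 0.000643) and nbr1b (log2 -0.68, edgeR adjusted p = 0.0234). The same genes were the 2 that were higher in Refed_8h than in Refed_3h, beside 3.06% of all tested genes. In Refed_3h against Fast 10 of the 30 had an unadjusted p under 0.05 in edgeR, and DESeq2 called 6. At least 3573 of the 16745 tested genes had an unadjusted p under 0.05 in that comparison. The median log2 fold change of the 30 was 0.47 there, beside -0.01 for all tested genes. Nbr1 is an autophagy receptor that in mammals is found in a complex with MuRF2 at the titin kinase. tcap, the gene of the titin cap telethonin, was at 804 ± 189, 461 ± 47.0 and 177 ± 37.7 TPM in Fast, Refed_3h and Refed_8h (SD, n = 4 each). It fell in Refed_8h against Fast (log2 -2.08, edgeR adjusted p = 0.00107) and was the only one of the 30 with a call in that comparison. tcap was also the 1 gene of the list that was lower in Refed_8h than in Refed_3h (log2 -1.61, edgeR adjusted p = 0.00419). mylpfa, a fast myosin light chain and the most abundant of the list, averaged 18100 to 22506 TPM per group and did not pass.

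Among 18 tested FoxO factors and FoxO-linked catabolic genes, 2 fell in Refed_3h against Fast and 2 were higher in Refed_8h than in Refed_3h. Of all tested genes 2.63% and 3.06% passed in these directions. In each of these comparisons 8 of the 18 had an unadjusted p under 0.05 in edgeR, and DESeq2 called 5 and 6. Such an unadjusted p was found for at least 3573 and 3164 of the 16745 tested genes. foxo4, a FoxO factor itself, fell in Refed_3h against Fast (log2 -1.32, edgeR adjusted p = 0.00104) and was higher in Refed_8h than in Refed_3h (log2 1.28, edgeR adjusted p = 0.000835). sesn1, the gene of a stress-induced sestrin, fell in Refed_3h against Fast (log2 -2.14, edgeR adjusted p = 0.0059). map1lc3b, which encodes an LC3 protein of the autophagosome, was higher in Refed_8h than in Refed_3h (log2 0.63, edgeR adjusted p = 0.0244). For Refed_8h against Fast none of the 18 passed in edgeR, with 5 at an unadjusted p under 0.05 and 2 called by DESeq2. At least 1419 of the 16745 tested genes had an unadjusted p under 0.05 there.

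Over all 12 fish, likeness of pattern was measured as the root mean square difference between mean-centred log2 CPM (counts scaled to library size by TMM), so that 0 would be an identical profile. Within the ligases the closest pair was fbxo21 and fbxo30a (0.49), followed by trim55b and trim63b (0.50), trim54 and trim55a (0.56), and trim63a and trim63b (0.58). The F-box genes fbxo32 and fbxo25 were 1.66 apart, with a larger amplitude in fbxo32, and fbxo32 and trim54 were the farthest apart (2.57). A difference of this kind is small between any 2 flat genes, so it describes these 12 libraries and no more. Low genes were not always close, as fbxo30a and trim54 were 0.98 apart.

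Among 6858 other genes with a mean of at least 5 TPM, those nearest to fbxo32 were klhl38b (0.82), pdk2a (0.89), klf11b (1.15), klhl24b (1.25) and nupr1b (1.28). pdk2a, a pyruvate dehydrogenase kinase gene, had 45.8 ± 11.2, 2.01 ± 0.682 and 28.9 ± 16.3 TPM in Fast, Refed_3h and Refed_8h (SD, n = 4 each). All 5 had their lowest group mean in Refed_3h, which follows from their choice by likeness to fbxo32 over these same fish. Nearest to trim63a were ppp1r27b (0.48), arrdc3a (0.49), cited2 (0.58), cfp (0.59) and txnipa (0.61). ppp1r27b, which encodes a regulatory subunit of protein phosphatase 1, was at 168 ± 100.1, 54.1 ± 16.8 and 131 ± 42.4 TPM in the same order. It had the wide spread among Fast fish that trim63a had, which again follows from its choice by likeness over these same fish.

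**Figure D4:**
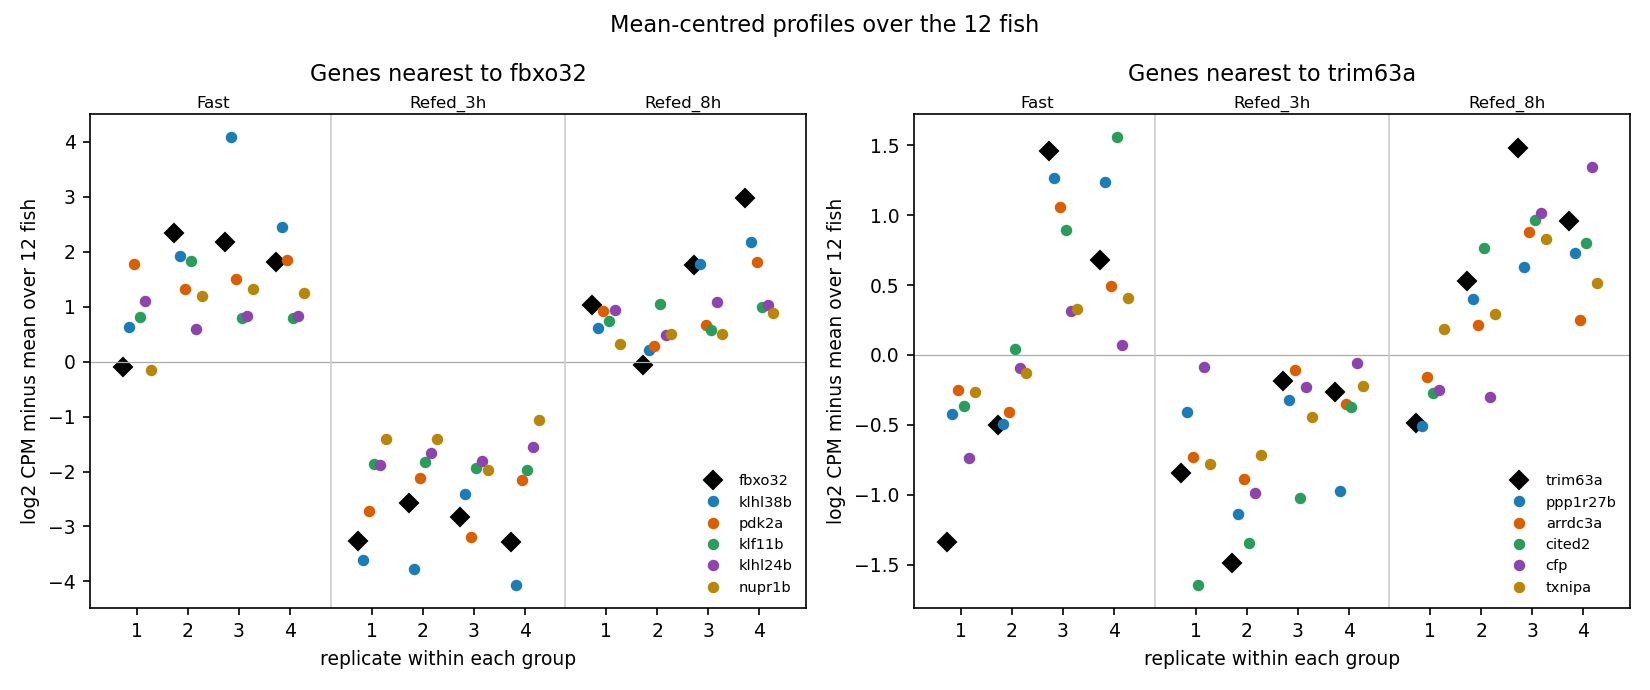
Mean-centred log2 CPM in each of the 12 fish, by group and replicate, for fbxo32 and its 5 nearest genes and for trim63a and its 5 nearest genes. Diamonds are the ligase and circles the nearest genes. The fbxo32 set, chosen by likeness over these same fish, is below its mean in all 4 Refed_3h fish. trim63a is highest in replicates 3 and 4 of Fast and Refed_8h.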

How the data were processed

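Muscle RNA of 12 zebrafish in 3 groups of 4 was analysed. The authors made poly(A) libraries, sequenced paired-end reads of 36 bases and mapped them to GRCz11 with CLC Genomics Workbench. The deposited table holds unnormalized whole-number counts of each gene. It also holds RPKM that the authors scaled by exon length and by library size, and the authors' TPM. RPKM served only to derive exon lengths, with the library total taken as 1.16 to 1.24 times the gene counts. The 12 CPM columns, which rescale the same counts, and 18 columns of the authors' own comparisons (fold changes, p-values, FDR) were not used. The annotation release is not given in the sources used here.

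Counts were filtered with filterByExpr, scaled by TMM (factors 0.790 to 1.21) and fitted in 1 model of 3 groups by edgeR 4.0.16 (robust quasi-likelihood, R 4.3.3). Passing means a Benjamini-Hochberg adjusted p under 0.05 over 16745 genes. SE and 95% intervals derive from the F statistic. The steps were tested on simulated data. P-values set a difference between groups against the spread between fish. Ratios used TPM + 0.1 and exact permutation over fish (scipy 1.17.1). Alternatives were DESeq2 1.42.0, RLE factors, no filter, pairs of groups alone, a replicate block, a term for replicates 1 and 2 against 3 and 4, a skin score covariate, limma 3.58.1 on log2(TPM + 1) or log2(TPM + 0.1) at a mean of at least 0.5 TPM and without that filter, and each library left out. These are the 22 alternatives, and some leave out a library of the group not compared. A 2-fold threshold was applied besides. Counts called by DESeq2 and limma are given without the shares of all genes that these tools called.

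The text names all 9 ligases, the most abundant gene of each list with up to 4 others that passed, averaged 1 TPM or more and changed most, and 5 genes nearest in pattern to fbxo32 and to trim63a. The ligases and lists were chosen with earlier results of these data known. The depth of 11929140 to 18446239 counts left fbxo21, fbxo30a and trim54 at 7 to 64 counts per library. List genes without a row, such as ube2m and trim32, were not analysed here, nor were protein and promoter sequences. A result that the naming rule would give is not reported here.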

Additional observations from a re-analysis of the deposited data

How the results depend on the processing

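Both calls of fbxo25 and that of fbxo32 for Refed_8h against Refed_3h held in all 22 alternatives. The call of fbxo32 for Refed_3h against Fast held in 21, all but the skin score covariate. The number of ligases that passed in Refed_3h against Fast, 2, became 1 with the skin score, 4 with limma on log2(TPM + 1) and 5 with log2(TPM + 0.1). In Refed_8h against Fast it was 0, and 1 with DESeq2 or without replicate 1 of Refed_8h. In Refed_8h against Refed_3h it was 3, and 5 with the skin score. Leaving out 1 library gave 2 to 3, 0 to 1 and 2 to 4 for these comparisons. The cause was not tested. Every estimate that turned sign was one that did not pass. For Refed_8h against Fast these were trim63a (-0.60 with the skin score), trim63b (0.056 with the replicate block, 0.031 with the term for replicates 3 and 4) and fbxo32 (-0.17 with that term, -0.23 and -0.24 with limma at pseudocounts of 1 and 0.1). Leaving out 1 library gave -0.23 to 0.34 for trim63b and -0.73 to 0.34 for fbxo32. For Refed_8h against Refed_3h, limma at pseudocounts of 1 and 0.1 gave 0.11 and 0.15 for trim54 and 0.16 and 0.17 for trim55b, with the median of all genes at 0.18 on the first scale, and leaving out 1 library gave -0.29 to 0.18 and -0.18 to 0.0069. The log2 ratios without 1 library were -0.38 to 0.78 for fbxo32 over fbxo25 in Refed_8h against Fast and -0.20 to 0.22 for trim63a over trim63b in Refed_3h against Fast.

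The fish were not treated as paired by replicate number, since no label gives the numbers a meaning and the deviations of same-numbered fish from their group means correlated at -0.19 to 0.27, over 0.1 in 7 of 12 pairs. As a hint from the data only, 7 of the 12 correlated best with their own number among 4. With the replicate block trim63a passed for Refed_8h against Refed_3h (1.27, edgeR adjusted p = 0.0407), which it did not do without it, and no other ligase call changed.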
